A study of Mus musculus with 8 samples.

Results

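The AP-1 transcription factor genes of the Jun, Fos and Batf families were followed in the skin of mice with and without a deletion of Junb in the epidermis. The 9 genes Junb, Jun, Jund, Fos, Fosb, Fosl1, Fosl2, Batf and Batf3 were chosen by family membership and taken by symbol from 3 deposited tables, which together list 50981 symbols. All 9 were found in each table. A symbol with more than 1 locus was represented by the one whose FPKM summed highest. FPKM is the number of fragments scaled to transcript length and library size, so that genes of unequal length can be compared within a library.

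The study compared JunB cKO and wild type mice of the C57BL/6 strain without perturbation, after hair plucking and after wounding. In JunB cKO mice, floxed Junb alleles are deleted by a Cre recombinase under the K14 promoter, which is active in basal keratinocytes of the epidermis and its appendages, while fibroblasts, leukocytes and other cells of the skin keep the gene. The labels give the genotypes as JunB +/+ and JunB -/-, and whether wild type mice carried the Cre transgene or floxed alleles is not given in the sources used here. The unperturbed pair came from mice of 60 days and is labelled as keratinocytes, whereas the study also speaks of dorsal skin. The labels give isolation with trypsin as the protocol of every sample, although the plucked and wound samples are titled as skin biopsies. The plucked pair was collected 4 days after depilation of the back, at postnatal day 58, and the wound pair 30 days after full-thickness biopsy excisions, with no age given in the sources used here. RNA of 3 samples was pooled per library. There are 8 libraries, 1 per genotype for the unperturbed and the plucked pair and 2 per genotype for the wounds, but in the wound table both libraries of a genotype share 1 value. Therefore no value has a replicate error, no difference between the genotypes could be tested against the spread between mice, and the comparisons below describe these libraries. The intervals given for ratios are 95% exact intervals for counting error only.

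AP-1 is a dimer of proteins with a basic leucine zipper, made of a Jun protein with another Jun protein or with a Fos, ATF or Batf protein. Jun proteins can pair with themselves, whereas Fos proteins need a Jun partner to bind DNA. Fos, Fosb, Jun and Junb are immediate early genes, which are transcribed within minutes of a growth factor, a cytokine or cell stress, through MAP kinases and the factors SRF, Elk and ATF. In the epidermis, AP-1 proteins take part in proliferation, differentiation and the response to injury.

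The promoters of Junb, Jun, Fos and Fosb are shown because these were the 4 members with the highest FPKM in unperturbed wild type keratinocytes, and each was lower in JunB cKO there. The sequences are the 250 bases before the RefSeq start on GRCm38.p6, read 5′ to 3′ on the strand of the gene, at chr8:84978749-84978998 (minus strand) for Junb, chr4:95052223-95052472 (minus) for Jun, chr12:85473640-85473889 (plus) for Fos and chr7:19310046-19310295 (minus) for Fosb. Capitals mark matches to TGACATCA, TGACG or CCAAT on either strand.
Junb: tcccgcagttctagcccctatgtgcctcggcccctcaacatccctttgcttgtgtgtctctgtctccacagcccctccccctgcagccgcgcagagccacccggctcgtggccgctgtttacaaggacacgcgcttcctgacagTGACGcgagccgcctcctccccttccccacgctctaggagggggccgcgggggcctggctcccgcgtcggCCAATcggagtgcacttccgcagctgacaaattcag
Jun: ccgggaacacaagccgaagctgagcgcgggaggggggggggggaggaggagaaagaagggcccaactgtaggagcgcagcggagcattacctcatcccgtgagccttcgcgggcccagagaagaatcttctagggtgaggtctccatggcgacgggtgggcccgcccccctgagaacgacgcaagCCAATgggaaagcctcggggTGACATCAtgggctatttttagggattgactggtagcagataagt
Fos: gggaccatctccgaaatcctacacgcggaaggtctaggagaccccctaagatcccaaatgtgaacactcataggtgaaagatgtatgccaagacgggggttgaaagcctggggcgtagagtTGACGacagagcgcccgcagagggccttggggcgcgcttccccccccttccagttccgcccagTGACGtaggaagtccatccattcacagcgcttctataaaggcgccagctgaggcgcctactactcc
Fosb: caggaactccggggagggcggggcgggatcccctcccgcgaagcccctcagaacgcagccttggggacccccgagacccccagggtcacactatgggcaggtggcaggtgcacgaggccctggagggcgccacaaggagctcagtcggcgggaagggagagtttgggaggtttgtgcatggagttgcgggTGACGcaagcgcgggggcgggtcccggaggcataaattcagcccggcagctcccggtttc
RefSeq promoters of 8 of the 9 genes were at hand, those of Junb, Jun, Jund, Fos, Fosb, Fosl2, Batf and Batf3. Each spans 300 bases, of which 250 lie before the RefSeq start, which can differ from the GENCODE start given below. The promoter of Jund ends at 70697788, while its GENCODE model starts at 70698949. Those of Fosl2 and Batf3 begin at 32136222 and 191098164, after the GENCODE starts at 32135801 and 191097847. For these 3 genes the bases searched may therefore not be those before the start of the gene model. The AP-1 site TGACTCA was in 0 of these 8 promoters on either strand and in 5.20% of 32851 promoters of the same length, and the cyclic AMP response element TGACGTCA was in 0 of 8 and in 1.79%. The variant TGACATCA, known from the Jun promoter as a site for Jun and ATF dimers, began at -45 in Jun (3.62% of promoters), and the core TGACG was found in Junb, Fos, Fosb and Batf (4 of 8, against 20.8%). Counted from the start, TGACG began at -106 in Junb, at -129 and -66 in Fos, at -60 in Fosb and at -98 in Batf. CCAAT, the box bound by NF-Y, began at -36 in Junb and at -65 in Jun (2 of 8, against 37.4%). TGACG also lies within each TGACGTCA, and the last 3 motifs were chosen after the sequences had been seen. A match is a run of letters and was not tested for binding.

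The libraries differed in depth and in cell types. By the steps in which low FPKM values occur, 1 FPKM of a gene stood for 16.9 reads per kb in unperturbed wild type and 4.98 in unperturbed JunB cKO, for 16.3 and 12.9 after plucking, and for 43.1 and 39.8 in wounds, there over both libraries. In the unperturbed pair, 1276 of 1480 sensory receptor genes, taken as genes with little or no expression in most skin cells, had an FPKM above 0 in JunB cKO and 73 in wild type, with a median of 0.543 in JunB cKO. Keratinocyte markers led the unperturbed pair, where the 9 of them summed to 10377 FPKM in wild type against 12001 in JunB cKO. Of these, 6 were lower in JunB cKO and 3 higher, none by 2-fold. Krt10 was the highest, with 3320 and 4889, and Krt5 had 2592 and 2690. The 7 fibroblast markers summed to 14.4 and 13.8 there. The plucked pair, for which the labels give keratinocyte as the tissue, and the wound pair held markers of the dermis as well and are called whole skin here. The summed fibroblast markers were 5169 in wild type against 1892 in JunB cKO after plucking (7 of 7 lower in JunB cKO, 3 of them by 2-fold) and 10644 and 13535 in wounds. The 6 leukocyte markers summed to 111 and 34.4 after plucking (5 of 6 lower by 2-fold) and to 141 and 177 in wounds. The 9 keratinocyte markers summed to 7929 and 9706 after plucking (6 higher in JunB cKO, 1 of them by 2-fold, and 3 lower). In wounds they summed to 3460 and 4570, with 6 higher and 3 lower. In whole skin, fewer cells of a type and less RNA per cell cannot be told apart, and the part of these markers in the values below was not tested. The tables were normalized separately, so levels are compared between them only by their place within each library.

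Junb, the gene deleted in the epidermis, was the second most abundant member in unperturbed wild type keratinocytes and was lower in JunB cKO in each table. It lies on chromosome 8 (ENSMUSG00000052837.6, 84974484 to 84978718 of GRCm38, minus strand) and has 1 exon in the transcript model used for read numbers. In unperturbed keratinocytes, Junb had 268 FPKM in wild type against 31.4 in JunB cKO, which is 11.7% of the wild type level and rests on about 7280 and 252 reads. The interval of the fold was 0.103 to 0.133. The log2 ratio of Junb, -3.05, was the 39th lowest among 6343 symbols that reached 10 FPKM in 1 of the genotypes. Log2 ratios here are log2((cKO + 1)/(WT + 1)) of FPKM values, which understates the ratio of low genes.

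In plucked skin, Junb had 40.8 FPKM in wild type against 11.7 in JunB cKO, 28.8% of wild type with an interval of the fold of 0.249 to 0.331. Its log2 ratio of -1.71 was the 424th lowest of 8553 symbols. In wounds, Junb had 33.4 FPKM in wild type against 15.4 in JunB cKO, 46.2% of wild type (0.429 to 0.498), and its log2 ratio of -1.06 was the 258th lowest of 8456. The Junb RNA that remained in JunB cKO was thus the smallest share in the pair with the fewest fibroblast and leukocyte transcripts and larger in whole skin, where cells without K14 activity are present. The part of those cells in the remainder was not tested.

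**Figure D1:**
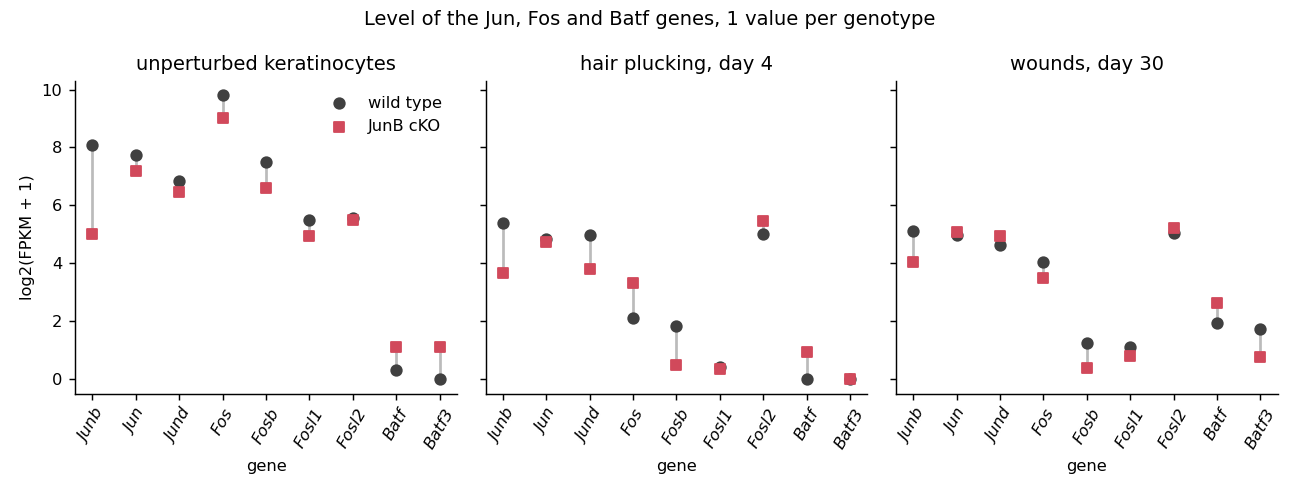
Level of the 9 genes as log2(FPKM + 1) on the vertical axis, for wild type (circles) and JunB cKO (squares), in unperturbed keratinocytes, 4 days after hair plucking and in wounds after 30 days. Each point is 1 value per genotype with no replicate error, and the grey line joins both genotypes. Junb was lower in JunB cKO in each panel, from 268 to 31.4, from 40.8 to 11.7 and from 33.4 to 15.4 FPKM, respectively.

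Jun and Jund, the other Jun genes, were not higher in JunB cKO where Junb was lowest. Jun (ENSMUSG00000052684.4, chromosome 4, 95049034 to 95052222, minus strand) encodes c-Jun, the main partner of Fos, and Jund (ENSMUSG00000071076.6, chromosome 8, 70698949 to 70700616, plus strand) encodes the Jun protein that is expressed most evenly across tissues. In unperturbed keratinocytes, Jun had 215 FPKM in wild type against 145 in JunB cKO (log2 ratio -0.57, interval of the fold 0.644 to 0.706). Jund had 114 and 86.5 (log2 ratio -0.39, 0.697 to 0.830). Both were lower in JunB cKO, but by less than Junb, and the sum of Jun and Jund was 70.4% of wild type.

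After plucking, Jun was nearly level between the genotypes, with 27.6 FPKM in wild type against 25.7 in JunB cKO (log2 ratio -0.10, interval of the fold 0.856 to 1.01). Jund had 30.3 and 13.0 (log2 ratio -1.16, 0.369 to 0.496), the 842nd lowest of 8553 symbols. In wounds Jun had 30.9 and 32.9 (log2 ratio 0.09, 1.02 to 1.11), and Jund had 23.6 and 30.0 (log2 ratio 0.33, 1.19 to 1.36). Beyond counting error, Jund was thus lower in JunB cKO in the plucked pair and higher in the wound pair, while Jun was within 10% of wild type in both. In the plucked and wound tables the Jun locus is joined with Junos, an antisense transcript that overlaps it. The entry that lists Junos also carries a second symbol, n-R5s189, so its values are not those of Junos alone. That entry had 16.9 and 1.07 FPKM after plucking and 2.34 and 7.25 in wounds. The libraries were prepared by a method that keeps the strand, but the strand setting of the counting is not given in the sources used here, so reads of Jun and Junos may not have been told apart.

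The makeup of the Jun transcripts differed between the genotypes. Of the summed FPKM of Junb, Jun and Jund, Junb made up 44.9% in unperturbed wild type against 12.0% in JunB cKO, 41.3% and 23.3% after plucking, and 38.0% and 19.7% in wounds. Jun took the largest share in JunB cKO in each table, 55.1% in unperturbed keratinocytes, 51.0% after plucking and 42.0% in wounds, against 36.0%, 28.0% and 35.2% in wild type. Junb was the largest of the Jun transcripts in wild type in all 3 tables. Since Junb is the deleted gene, its lower share, and a higher joint share of Jun and Jund, follow in part from the design. The sum itself was 596 FPKM in wild type against 263 in JunB cKO in the unperturbed pair, 98.7 and 50.4 after plucking, and 87.9 and 78.3 in wounds.

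**Figure D2:**
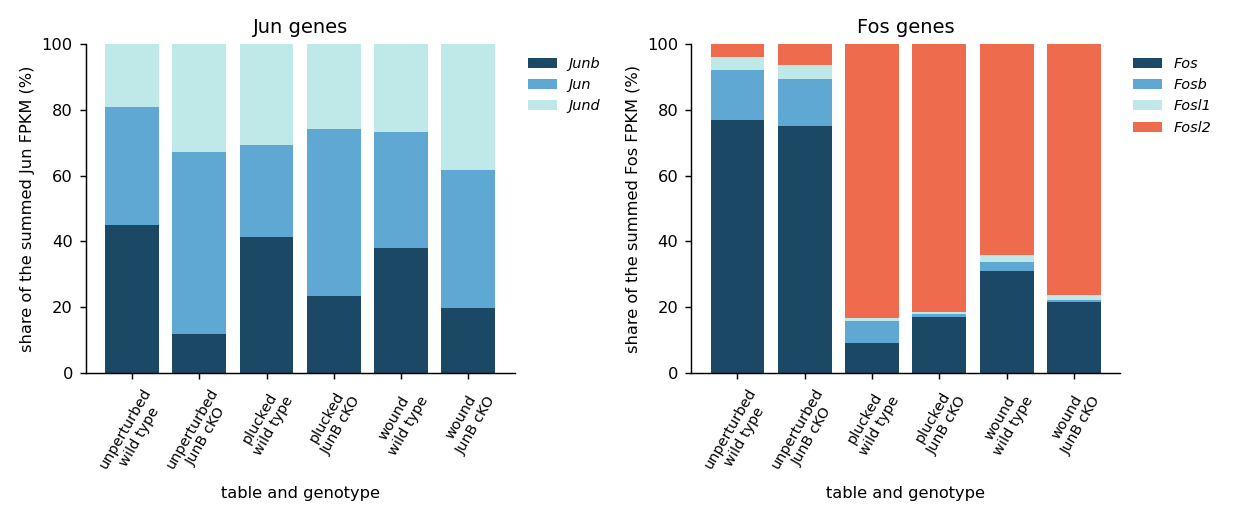
Share of each gene in the summed FPKM of the 3 Jun genes (left) and the 4 Fos genes (right), in percent, for each table and genotype, with 1 value per bar segment and no replicate error. Junb went from 44.9% of the wild type sum to 12.0% of that of JunB cKO in the unperturbed pair, and Fosl2 made up 83.2% and 81.5% of the Fos transcripts after plucking, against 3.97% and 6.39% in unperturbed keratinocytes.

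Among the Fos genes, Fos (ENSMUSG00000021250.13, chromosome 12, 85473890 to 85477273, plus strand) encodes c-Fos, the classic immediate early protein. In unperturbed keratinocytes it was the most abundant member of the family, with 892 FPKM in wild type against 514 in JunB cKO, 57.6% of wild type with an interval of the fold of 0.559 to 0.594. Its log2 ratio of -0.79 was the 232nd lowest of 6343 symbols. After plucking, Fos was low in wild type, with 3.38 FPKM, and higher in JunB cKO, with 8.97 (log2 ratio 1.19, 2.65-fold with an interval of 2.09 to 3.37), from about 105 and 220 reads. In wounds it had 15.6 and 10.3 (log2 ratio -0.55, 0.606 to 0.725). Fos was therefore lower in JunB cKO in unperturbed keratinocytes and wounds and higher in plucked skin, each beyond counting error.

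Fosb (ENSMUSG00000003545.3, chromosome 7, 19302696 to 19310051, minus strand) encodes a Fos protein with a long and a short form, which a value per gene does not separate. It was lower in JunB cKO in each table. In unperturbed keratinocytes it had 178 FPKM in wild type against 96.7 in JunB cKO (54.2% of wild type, log2 ratio -0.88, the 178th lowest of 6343 symbols). After plucking it had 2.54 and 0.397 (15.6% of wild type, log2 ratio -1.34, interval of the fold 0.089 to 0.251), from about 148 and 18 reads. In wounds it had 1.39 and 0.318 (23.0% of wild type, log2 ratio -0.86, 0.161 to 0.315), from about 214 and 45 reads. Fosb and Junb were the members with a lower value in JunB cKO in all 3 tables beyond counting error, and in whole skin Fosb was near the lower limit of what was called measured, an FPKM of 1 in either genotype.

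Fosl1 and Fosl2 encode Fos-related proteins that lack the transactivation domain of Fos and are expressed later after a stimulus. Fosl1 (ENSMUSG00000024912.6, chromosome 19, 5447547 to 5455946, plus strand) had 44.4 FPKM in unperturbed wild type against 30.1 in JunB cKO (log2 ratio -0.55, interval of the fold 0.588 to 0.776). It was low in whole skin, with 0.334 and 0.277 after plucking, from about 9 and 6 reads, and 1.17 and 0.736 in wounds. At these reads no difference was detectable after plucking (interval of the fold 0.247 to 2.65), and in wounds the interval was 0.435 to 0.909.

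Fosl2 (ENSMUSG00000029135.10, chromosome 5, 32135801 to 32157842, plus strand) was the member whose place within the libraries moved least between the tables. It had 46.1 FPKM in wild type against 43.7 in JunB cKO in unperturbed keratinocytes, with an interval of the fold of 0.893 to 1.01. It had 31.0 and 42.6 after plucking (log2 ratio 0.45, 1.31 to 1.44) and 32.2 and 36.3 in wounds (log2 ratio 0.17, 1.09 to 1.16). Fosl2 was not lower in JunB cKO in whole skin, and there it was the most abundant Fos gene. It made up 83.2% of the Fos transcripts in wild type against 81.5% in JunB cKO after plucking, and 64.0% and 76.1% in wounds. In unperturbed keratinocytes, Fos itself made up 76.8% and 75.1%.

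The summed FPKM of the 4 Fos genes was 1161 in wild type against 684 in JunB cKO in the unperturbed pair, 37.3 and 52.2 after plucking, and 50.4 and 47.6 in wounds. The ratio of the Fos sum to the Jun sum was 1.95 in wild type against 2.60 in JunB cKO in unperturbed keratinocytes, 0.378 and 1.04 after plucking, and 0.573 and 0.609 in wounds. This ratio was higher in JunB cKO in each pair, most in plucked skin, where Jund and Junb were lower and Fos and Fosl2 higher. The Jun sum includes the deleted gene Junb, so a higher ratio follows in part from the design. Without Junb, the sum of Jun and Jund was 70.4%, 66.8% and 115% of wild type in the 3 pairs. The Fos sum was 59.0%, 140% and 94.6%, so relative to Jun and Jund it was higher in JunB cKO only after plucking.

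Batf and Batf3 encode small zipper proteins without a transactivation domain, known for their roles in T cells and dendritic cells. Batf (ENSMUSG00000034266.6, chromosome 12, 85686669 to 85709087, plus strand) had 0.252 FPKM in unperturbed wild type against 1.14 in JunB cKO, from about 3 and 4 reads, and had 0.927, about 9 reads, in plucked JunB cKO with 0 listed for plucked wild type. Batf3 (ENSMUSG00000026630.9, chromosome 1, 191097847 to 191108945, plus strand) had 1.18, about 5 reads, in unperturbed JunB cKO, with 0 listed for wild type there and for both genotypes after plucking. In unperturbed JunB cKO, where the sensory receptor genes had a median of 0.543 FPKM, Batf and Batf3 were not far above it. With so few reads and values near that median, a difference between the genotypes cannot be read there. In wounds both were measured. Batf had 2.87 FPKM in wild type against 5.15 in JunB cKO (log2 ratio 0.67, interval of the fold 1.39 to 2.36), and Batf3 had 2.37 and 0.725 (log2 ratio -0.97, 0.188 to 0.472), from about 93 and 26 reads. Beside these, the 7 T cell markers of wounds summed to 15.8 in wild type against 20.8 in JunB cKO and the 6 dendritic cell markers found to 11.6 and 12.9. Of these markers, 5 of 7 for T cells and 5 of 6 for dendritic cells were higher in JunB cKO. The dendritic cell marker that was lower was Xcr1, with 0.629 FPKM in wild type against 0.252 in JunB cKO, below 1 FPKM in both. Of the markers that were higher, Itgae had 2.64 and 2.71 and Flt3 1.21 and 1.22, which is nearly level. Batf and Batf3 thus went in opposite directions, and the part of such cells was not tested.

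**Figure D3:**
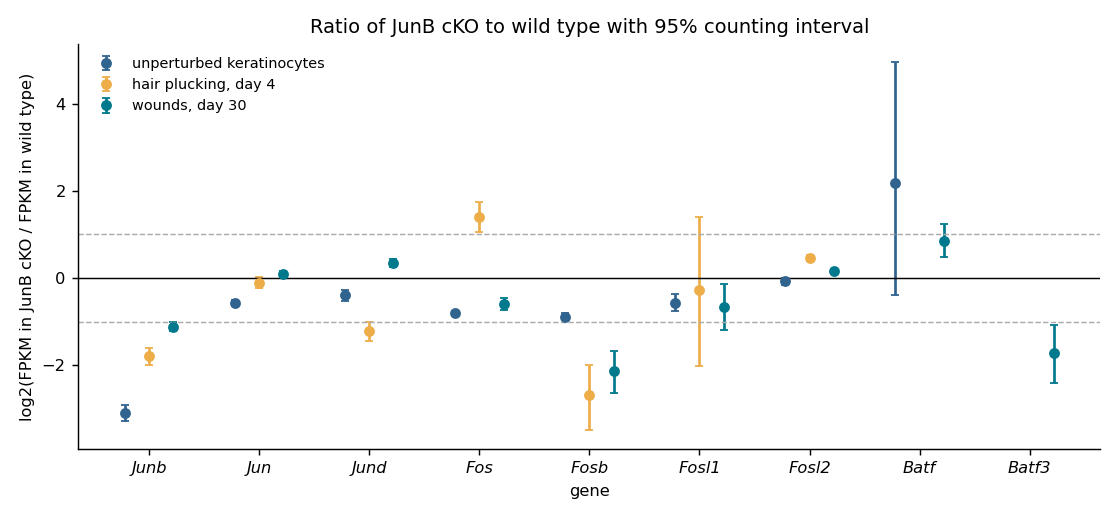
Log2 ratio of the FPKM in JunB cKO to that in wild type, without a pseudocount, for each gene and table on the horizontal axis. Bars are 95% intervals for counting error only, dashed lines mark 2-fold, and a gene with 0 reads in a genotype is not drawn. The intervals of Junb and Fosb lie below 0 in all 3 tables, and that of Fos lies above 0 after plucking and below 0 in the others.

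At a 2-fold limit with a pseudocount of 1, 1 of 9 members was lower in unperturbed JunB cKO (Junb) and 1 was higher (Batf3, from about 5 reads), against 1.40% and 15.4% of 15883 symbols that reached 1 FPKM in 1 of the genotypes. Junb is the deleted gene, so its lower value follows from the design, and none of the other 8 members was 2-fold lower there. Lower by any amount were 7 of 9, against 52.8%. Above 10 FPKM, the 7 Jun and Fos genes were lower without exception, against 78.7% of 6343 symbols, so a lower value in itself was common among expressed genes in this pair. The median log2 ratio of symbols that reached 1 FPKM in both genotypes was -0.15 there, and relative to it Fosl2 was slightly higher and the other 6 were still lower. After plucking, Jund and Fosb were 2-fold lower besides the deleted Junb, and Fos was 2-fold higher, out of 6 members that were measured, against 16.0% and 18.2% of 16221 symbols. The remaining 3, Fosl1, Batf and Batf3, were below an FPKM of 1 in both genotypes. In wounds, 1 of 9 was 2-fold lower (Junb), none of the other 8 was, and 0 were higher, against 5.23% and 5.69% of 17346 symbols. With a pseudocount of 0.1 or 0.01 in place of 1, 3 were lower there, namely Junb, Fosb and Batf3. The sum of the 8 members without Junb was 61.6% of wild type in the unperturbed pair, 96.5% after plucking and 106% in wounds.

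The place of the family within each library set the unperturbed pair apart from both pairs of whole skin. In unperturbed wild type, 7 of 9 members were above the 90th percentile of measured symbols, and in JunB cKO 5 were. In plucked and wounded skin, 0 of 9 were, in either genotype. Fos stood at percentile 99.5 in unperturbed wild type, 31.4 in plucked and 65.6 in wounded wild type, whereas JunB cKO had 99.3, 51.4 and 55.4. Junb stood at 98.8, 84.3 and 82.2 in wild type, whereas JunB cKO had 88.8, 57.5 and 65.3, and Fosl2 at 91.6, 79.4 and 81.5 in wild type.

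Other immediate early genes showed a similar order of places. Of 28, 16 were above the 90th percentile in unperturbed wild type against 17 in JunB cKO, and 2 in each of the other 4 columns. Zfp36, which encodes an RNA-binding protein that destabilizes cytokine mRNA, stood at percentile 98.9 in unperturbed wild type and 47.3 in plucked wild type. Nr4a1, a nuclear receptor gene, stood at 98.6 and 8.80, and Egr1, a zinc finger factor gene, at 98.3 and 65.3. Not every gene of the list was placed lower in plucked wild type. Klf10 stood at 85.5 and 86.0, and Ctgf at 77.8 and 81.4. The pairs differ in tissue and treatment, and may differ in age and in the isolation of the cells, and these cannot be told apart in the places.

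**Figure D4:**
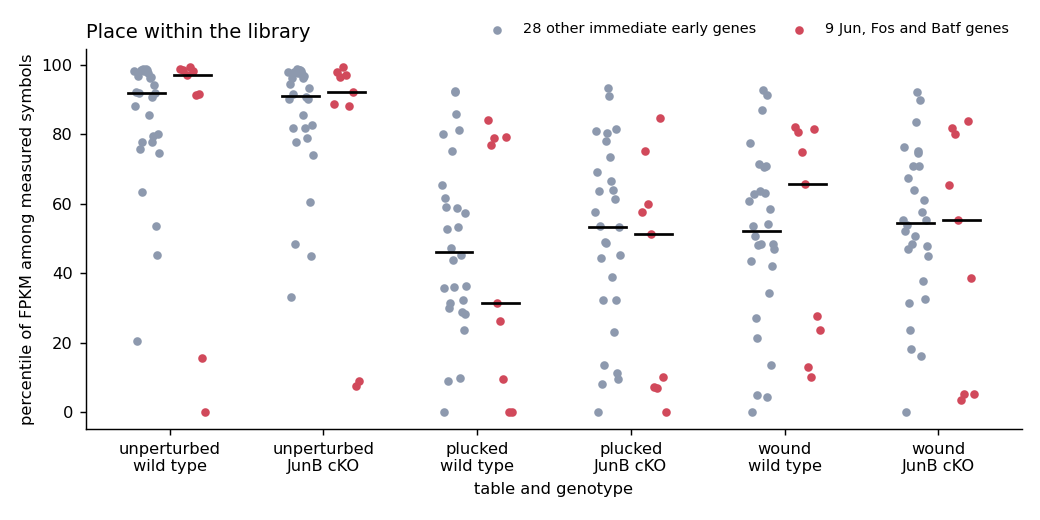
Percentile of the FPKM of each gene among the measured symbols of its library (vertical axis), for the 9 Jun, Fos and Batf genes and 28 other immediate early genes, by table and genotype. Each point is 1 gene and black lines are medians. In the unperturbed pair, 7 of 9 members in wild type against 5 in JunB cKO were above percentile 90, and 0 in plucked and wounded skin.

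The ratios of the other immediate early genes were small in the unperturbed pair. Of 28, 0 were 2-fold lower and 1 was 2-fold higher, Egr4 from 0.685 to 2.64 FPKM, against 1.40% and 15.4% of all measured symbols. Egr4 was low in JunB cKO, where the sensory receptor genes had a median of 0.543 FPKM. By any amount 21 were lower, against 52.8% of all measured symbols and 78.7% of those that reached 10 FPKM. The median log2 ratio of the 28 genes was -0.22, against -0.03 over all measured symbols. Nr4a2 had 10.9 in wild type against 5.21 in JunB cKO, Socs3, an inhibitor of cytokine signalling, 62.8 and 35.5, and Nr4a1 211 and 137 (log2 ratios -0.94, -0.81 and -0.62). Fos and Fosb were thus within the range of these genes, with log2 ratios of -0.79 and -0.88, and Junb was outside it. After plucking, Socs3 had 2.93 and 35.4 FPKM, Atf3 4.25 and 33.2, and Egr3 4.19 and 19.2 (log2 ratios 3.21, 2.70 and 1.96), and Arc 0.408 and 2.34. These were the 4 genes of 26 measured that were 2-fold higher, against 18.2% of all measured symbols. Ctgf, with 35.0 and 15.6, and Phlda1, with 2.84 and 0.844, were 2-fold lower, against 16.0% of all measured symbols. The median was 0.12 against 0.03. In wounds 0 of 27 were 2-fold lower or higher, against 5.23% and 5.69% of all measured symbols. The median there was 0.16 against 0.01.

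The bZIP genes whose products can pair with Jun or Fos proteins, or share their zipper, were followed as a list of 33. In the unperturbed pair 0 were 2-fold lower and 4 higher, namely Batf2, Mafa, Nrl and Nfe2, none above 4.33 FPKM, against 1.40% and 15.4% of all measured symbols. Batf2, Nrl and Nfe2 had 1.20, 1.63 and 1.91 FPKM in JunB cKO, where the sensory receptor genes had a median of 0.543. The limit given for Batf and Batf3 thus holds for these low values too, and the share of 15.4% may include other such genes. The median log2 ratio was -0.12. After plucking, 5 of 29 measured were 2-fold lower, among them Nfe2, with 13.3 FPKM in wild type but 0 listed for JunB cKO, Creb3, with 90.04 and 31.73, and Jdp2, a repressor that pairs with Jun proteins, with 7.54 and 2.40. The other 2 were Mafa and Ddit3. Atf3, Atf1 and Batf2 were 2-fold higher, Atf1 with 9.11 and 30.8. Over all measured symbols of that pair, 16.0% were lower and 18.2% higher. In wounds 0 of 28 passed the limit in either direction, against 5.23% lower and 5.69% higher of all measured symbols.

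Upstream of the family are the MAP kinases and the SRF and Elk factors. None of 29 measured genes passed the 2-fold limit in the unperturbed pair, against 1.40% lower and 15.4% higher of all measured symbols. By any amount 26 were lower, against 52.8% of all measured symbols and 78.7% of those that reached 10 FPKM. The median log2 ratio was -0.20, with Map2k7, a kinase of the JNK pathway, at 21.7 and 11.9 FPKM. After plucking, 1 of 26 was 2-fold lower, Elk3 with 6.56 and 2.14, and 0 were higher, against 16.0% and 18.2% of all measured symbols. Srf, which drives Fos through the serum response element, had 6.57 and 13.9 (log2 ratio 0.98). Mapk3, which encodes ERK1, had 91.8 and 51.2 after plucking and 67.4 and 45.0 in wounds. There 0 of 26 passed, against 5.23% lower and 5.69% higher of all measured symbols. Of 8 MAP kinase phosphatases measured after plucking, 1 was 2-fold lower, Dusp4 with 1.74 and 0.183, and 1 higher, Dusp7 with 26.2 and 61.2. The shares of all measured symbols were again 16.0% and 18.2%. In the unperturbed pair 0 of 10 passed and in wounds 0 of 9, against the shares given above. In wounds Dusp2 had 6.24 and 3.49 and Dusp16 16.4 and 26.9.

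Genes known as AP-1 targets passed the limit in both directions. Of 32 measured in the unperturbed pair, 2 were 2-fold lower, the keratin gene Krt16 with 62.0 and 23.8 FPKM and the cornified envelope gene Sprr1b with 33.8 and 13.0, and 10 were higher, against 1.40% and 15.4% of all symbols. Lor, which encodes the envelope protein loricrin, had 47.0 and 213, and Flg, which encodes filaggrin, had 11.3 and 46.1. After plucking, 11 of 33 were lower and 10 higher, against 16.0% and 18.2%. S100a8 was at 152 FPKM in JunB cKO and listed at 0 in wild type, S100a9 had 2.56 and 250, Fgf7, a growth factor made by fibroblasts, had 15.3 and 3.33, and Timp1 and Il1b had 6.69 and 6.43 in wild type, while JunB cKO was listed at 0. In wounds 2 of 35 were lower and 7 higher, against 5.23% and 5.69% of all measured symbols. Lower were Ivl, the involucrin gene, with 139 and 65.7, and Tnf, with 2.12 and 0.558. Among the higher ones, S100a9 had 10.9 and 77.5 and Cxcl2, a neutrophil chemoattractant gene, 1.05 and 7.85. Krt6b was higher in JunB cKO in each table, with 1.95 and 9.65, 7.90 and 59.2, and 3.44 and 17.3. Krt6a, another keratin 6 gene of the list with higher FPKM, did not share this. It had 19.7 and 23.2 in the unperturbed pair, 226 and 66.2 after plucking (log2 ratio -1.76), and 101.4 and 104.5 in wounds. S100a8 and S100a9 are also neutrophil markers, and Ly6g, a defining neutrophil gene, was listed at 0 in both genotypes after plucking and in wounds. Of the other markers of that list, Cxcr2 had 1.55 FPKM in wild type against 2.42 in JunB cKO after plucking and 0.794 against 1.57 in wounds, Retnlg 0.546 against 1.72 in wounds with 0 listed for both genotypes after plucking, and Mmp8 0.980 against 0.207 and 0.893 against 0.533. The part of neutrophils in these values was not tested.

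**Figure D5:**
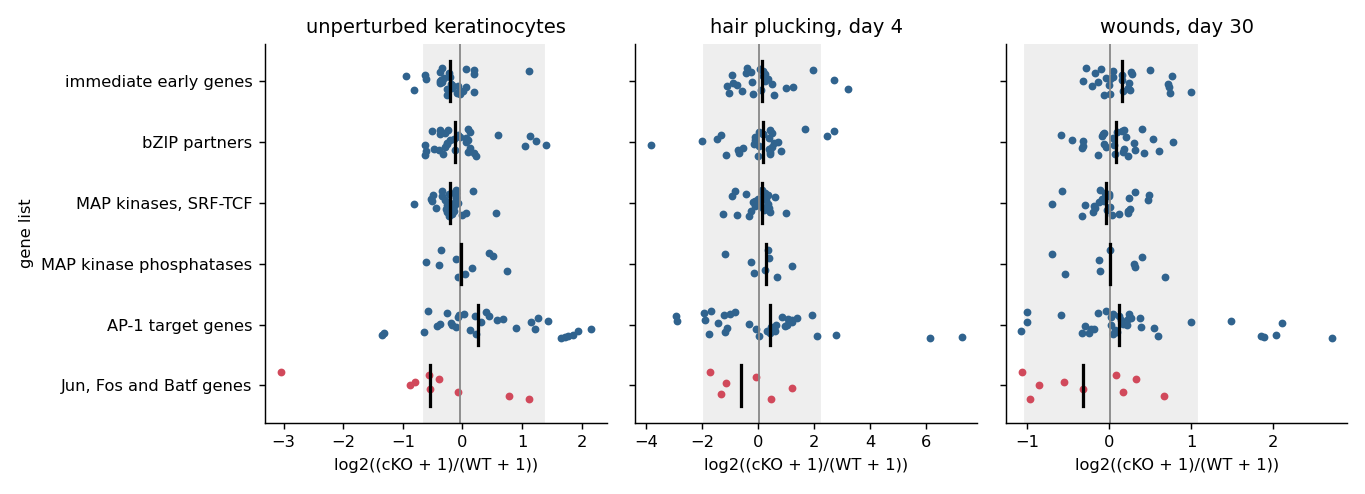
Log2((cKO + 1)/(WT + 1)) of FPKM values for the genes of each list that reached 1 FPKM in a genotype, in the 3 tables. Each point is 1 gene, black bars are list medians, the grey line is the median of all measured symbols and the shaded band spans their 5th to 95th percentile. Junb, at -3.05, is the lowest point of the unperturbed panel, and the AP-1 target genes reach 7.26 after plucking.

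By the distance between the 3 log2 ratios, the symbols most like Junb among 6992 with an FPKM of at least 5 in every table were Dnaja1, Acyp1, Pold4, Commd4 and Igfbp3, at distances of 1.54 to 1.97. None was close, since the log2 ratios of Dnaja1 were -3.07, -0.52 and -0.10, against -3.05, -1.71 and -1.06 of Junb. Those most like Fos were Tcp11l2, Ppp2r4, Nkap, Prr9 and Srrt, at distances of 0.125 to 0.344, with Tcp11l2 at -0.73, 1.28 and -0.60. Each pattern rests on 3 ratios.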

How the data were processed

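Expression of the Jun, Fos and Batf genes was analysed in 3 tables, which the authors deposited with 1 FPKM value per gene locus and genotype. Per the study's methods and the labels, the authors depleted rRNA, sequenced stranded single-end reads of 75 bp from RNA of 3 samples pooled per library, trimmed and aligned them to the mouse genome (mm10, which is GRCm38) and calculated FPKM with Cufflinks and Cuffdiff, separately for each table. The deposited tables also hold the authors' log2 fold changes, test statistics, p-values and q-values, which were not used. Genotypes were taken from the sample names in the tables and from the labels. All value columns could be assigned (0 left over), but the wound columns cover 2 libraries each.

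Log2((cKO + 1)/(WT + 1)) was calculated for symbols that reached 1 FPKM in a genotype (called measured), with 1 locus per symbol, and symbols at or past 2-fold were counted. No test was possible with 1 value per genotype, and the planned fit of the wound libraries with limma was not made. Reads per FPKM were estimated from single-exon genes of 300 to 4000 bp and up to 6.5 reads, whose FPKM times length, less 200 bp, falls on whole numbers. Between 88.5% and 100% of these low values lay within 0.1 of a whole read. Read numbers of members are estimates from their longest GENCODE transcript, rounded, and give exact binomial intervals of 95%, which cover counting error only, since reads carry no molecular identifiers. A gene was named if it was a member, was among the 3 highest or 3 lowest of a list in a table (FPKM of at least 5, absolute log2 ratio of at least 0.5), was covered by a count of 5 or fewer, was the marker of highest FPKM in its list, or was among the 5 most like Junb or Fos. Other genes were named after their values had been seen. Members and lists were chosen with earlier results of these data known. Some lists share genes, such as Atf3, Srf and Dusp1. Not found in the plucked and wound tables were Atf7, Creb5, Mafg, Map2k7, Elk1 and Elk4. Gene positions come from GENCODE and promoters from RefSeq (GRCm38.p6). Alternatives were pseudocounts of 0.1 and 0.01, a minimum FPKM of 10 or none, a 1.5-fold limit, centring on the median ratio, summed loci and subtraction of the receptor gene median. The calculations were tested on simulated data. Python 3.11.15, numpy 2.4.6, pandas 2.3.3, scipy 1.17.1 and matplotlib 3.10.9 were used.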

Additional observations from a re-analysis of the deposited data

Results flagged for a closer look

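Fos differed in direction between the tables. Its log2 ratio of JunB cKO to wild type was -0.79 in unperturbed keratinocytes, from 892 to 514 FPKM, and 1.19 after hair plucking, from 3.38 to 8.97 FPKM. The difference between these ratios was not tested, since each rests on 1 library per genotype.

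Batf3 had a log2 ratio of -0.97 in wounds, from 2.37 to 0.725 FPKM, and of 1.12 in unperturbed keratinocytes, where wild type was listed at 0 and JunB cKO had 1.18 FPKM, about 5 reads. This difference was not tested either, and subtracting the receptor gene median takes the unperturbed value below the 2-fold limit.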

How the results depend on the processing

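The count of members past 2-fold depended on settings that act on low values. With pseudocounts of 0.1 and 0.01 or a 1.5-fold limit in place of 2-fold, 2 members in place of 1 were higher in unperturbed JunB cKO, and with a minimum FPKM of 10 or the receptor gene median subtracted 0 were. At the 1.5-fold limit 3 members in place of 1 were lower in the unperturbed pair. After plucking, 0 in place of 1 were higher with a minimum FPKM of 10, which leaves Fos out. In wounds 3 in place of 1 were lower with pseudocounts of 0.1 and 0.01 and at the 1.5-fold limit, and at the latter 1 in place of 0 was higher. Of the alternative values of these counts and of the list medians, 67 stayed within 1.5 times the count or 0.5 of the log2 median and 11 did not. Of 135 alternative log2 ratios of single members, 12 moved, all with a smaller pseudocount and for Fosb, Batf or Batf3, and 1 changed sign, that of Fosl2 in the unperturbed pair, from -0.08 to 0.08 when centred on the median ratio. No paired analysis was possible because each table holds 1 value per genotype, and for the same reason the wound libraries could not be left out in turn. Depth limits Batf and Batf3 in the unperturbed and plucked pairs and Fosl1 after plucking, each with fewer than 10 reads per library. In unperturbed JunB cKO, the receptor gene median limits Batf and Batf3 as well.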

Other observations

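Batf and Batf3 have known roles in dendritic cells and T cells. Cd207, which encodes langerin of Langerhans cells, had 23.4 FPKM in unperturbed wild type and 15.2 in JunB cKO, 8.40 and 15.8 after plucking, and 4.66 and 4.79 in wounds. Cd3g, a subunit of the T cell receptor complex, had 39.6 and 20.6 after plucking and 8.31 and 10.7 in wounds. The skeletal muscle gene Mylpf had 118 FPKM in plucked wild type and 11.3 in plucked JunB cKO. Lyz2, a gene of myeloid cells, had 136 and 51.5 FPKM there, and 311 and 305 in wounds.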
